A study of Mus musculus with 9 samples.

Results

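The transcripts described here are those of 9 mouse genes of the transforming growth factor beta (TGF-beta) pathway, namely the receptors Tgfbr1 and Tgfbr2, the SMAD genes Smad2, Smad3, Smad4 and Smad7, and the repressors Ski, Skil and Tgif1. They were chosen by symbol from the 18188 genes listed in every library, and all 9 were found and passed the filter on low values. Poly(A) RNA was sequenced from CD8+ T cells of mouse spleens in 4 libraries of the genotype Rig1 KO, which carry a knockout of the RIG-I gene, and in 5 libraries of the genotype WT. The labels give no strain, age, treatment or purification method for either genotype, and no cell type or stage for the deletion. Libraries are numbered within a genotype and no animals are named, so every p-value here rests on the spread among the samples, whose source may be technical.

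TGF-beta is a cytokine that restrains the proliferation and cytotoxicity of CD8+ T cells and helps to keep naive cells quiescent. The ligand binds the type II receptor TGFBR2, which phosphorylates the type I receptor TGFBR1, and this kinase then phosphorylates SMAD2 and SMAD3, which enter the nucleus with SMAD4 to regulate genes. SMAD7 blocks the receptor and is itself induced by the pathway, while SKI, SKIL (SnoN) and TGIF1 hold SMAD complexes in a repressed state on DNA.

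Of the 9 genes, 2 rose and 2 fell in Rig1 KO libraries, and 5 did not pass the test. The receptor gene Tgfbr1 (1.57-fold) and the signal-transducing SMAD gene Smad3 (1.45-fold) were higher, whereas the inhibitory SMAD gene Smad7 fell to 49.5% and the corepressor gene Tgif1 to 36.5% of the WT mean. Tgfbr2, Smad2, Smad4, Ski and Skil lay within 10% of the WT mean, with intervals given below. Across all 10540 tested genes 45.7% were called, 33.5% higher and 12.2% lower, so 4 of 9 called is near the share of the whole table. A fall of at least 2-fold that passed the test was less common, at 2.74% of tested genes, and Tgif1 and, at -1.0 on the log2 scale just past the limit, Smad7 met it. A rise of that size was called for 2.37% of tested genes and for none of the 9. Calls come from limma on log2(TPM + 1) at a Benjamini-Hochberg adjusted p under 0.05 across the whole table, where TPM, a read count scaled for gene length and sequencing depth, is the deposited unit.

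The libraries held between 15496262 and 17893558 reads, as recovered from the TPM values, and every one of the 9 genes had at least 755 reads in each library. Ddx58, the older symbol of the RIG-I gene, averaged 33.3 ± 2.04 TPM in Rig1 KO and 65.1 ± 2.0 TPM in WT libraries (SD, n = 4 and 5), with no overlap between groups. The transcript was thus still present, at 51.1% of the WT mean, and the labels do not say which part of the gene was deleted. All 7 T cell markers (Cd3d, Cd3e, Cd3g, Cd8a, Cd8b1, Cd2 and Cd5) were called higher in Rig1 KO. Their summed levels were 4612 to 5107 TPM in Rig1 KO, against 3239 to 3775 TPM in WT. Markers of other cells moved with genotype as well. Summed B cell markers spanned 92.7 to 199 TPM in Rig1 KO and 165 to 1157 TPM in WT (7 of 8 tested lower), and platelet markers 32.0 to 40.5 TPM in Rig1 KO and 183 to 246 TPM in WT (5 of 5 lower). Natural killer markers spanned 505 to 546 TPM in Rig1 KO and 180 to 260 TPM in WT (5 of 7 higher), and basophil and mast cell markers 207 to 404 TPM in Rig1 KO and 11.7 to 46.3 TPM in WT (5 of 5 higher). In 6 tested natural killer markers other than Eomes, which CD8+ T cells also express, the sums were 213 to 237 TPM in Rig1 KO and 46.8 to 144 TPM in WT. Erythroid markers summed to 182 to 324 TPM in Rig1 KO and 74.8 to 204 TPM in WT (3 of 5 higher), neutrophil markers to 83.9 to 148 TPM in Rig1 KO and 84.5 to 543 TPM in WT (2 of 5 lower), and CD4 and regulatory T cell markers to 21.1 to 24.6 TPM in Rig1 KO and 21.6 to 68.3 TPM in WT (2 of 4 lower). Myeloid markers summed to 564 to 666 TPM in Rig1 KO and 313 to 743 TPM in WT, and limma called none of 7 (0 higher and 0 lower at an unadjusted p under 0.05, 0 and 0 called by limma voom). No marker found was at 0 in all libraries of a genotype. The part of these cells in the results on the 9 genes was not tested beyond the fits given with them, and in bulk RNA fewer cells of a type and less RNA per cell cannot be told apart.

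Upstream sequences of Tgif1, Smad3 and Tgfbr1, 3 of the 4 called genes, are shown because SMAD proteins bind DNA at short motifs of this region in many of their targets. RefSeq start sites (table of GRCm38.p6, an older build than the authors' mm39) were used for 5 of the 9 genes, with 10 windows of 250 bases before the start. Capitals mark a CAGA box (CAGACA on either strand), the motif bound by SMAD3 and SMAD4, and a sequence without capitals holds none. Tgif1 had 5 windows, of which only those with a CAGA box are shown.
Tgif1, first start (chr17:70853533-70853782, minus strand): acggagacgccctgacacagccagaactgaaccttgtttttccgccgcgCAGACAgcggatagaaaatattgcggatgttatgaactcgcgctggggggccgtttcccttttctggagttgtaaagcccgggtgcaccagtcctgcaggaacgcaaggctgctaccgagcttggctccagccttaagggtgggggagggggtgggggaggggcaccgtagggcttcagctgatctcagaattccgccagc
Tgif1, second start (chr17:70851735-70851984, minus strand): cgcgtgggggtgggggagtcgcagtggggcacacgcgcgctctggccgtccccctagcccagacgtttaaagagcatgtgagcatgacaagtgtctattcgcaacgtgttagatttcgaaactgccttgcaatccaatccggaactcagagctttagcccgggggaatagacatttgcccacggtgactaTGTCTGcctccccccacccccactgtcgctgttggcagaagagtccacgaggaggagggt
Smad3 (chr9:63757995-63758244, minus strand): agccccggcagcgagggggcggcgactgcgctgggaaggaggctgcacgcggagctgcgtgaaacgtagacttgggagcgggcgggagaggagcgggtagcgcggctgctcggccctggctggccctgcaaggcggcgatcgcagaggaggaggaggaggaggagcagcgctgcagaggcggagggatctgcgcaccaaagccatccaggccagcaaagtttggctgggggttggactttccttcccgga
Tgfbr1, first start (chr4:47352972-47353221, plus strand): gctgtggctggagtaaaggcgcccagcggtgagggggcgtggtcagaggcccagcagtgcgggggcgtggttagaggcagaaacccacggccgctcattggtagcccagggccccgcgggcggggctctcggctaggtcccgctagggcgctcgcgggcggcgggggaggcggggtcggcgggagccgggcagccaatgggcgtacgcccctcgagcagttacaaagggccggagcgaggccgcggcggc
Tgfbr1, second start (chr4:47385966-47386215, plus strand): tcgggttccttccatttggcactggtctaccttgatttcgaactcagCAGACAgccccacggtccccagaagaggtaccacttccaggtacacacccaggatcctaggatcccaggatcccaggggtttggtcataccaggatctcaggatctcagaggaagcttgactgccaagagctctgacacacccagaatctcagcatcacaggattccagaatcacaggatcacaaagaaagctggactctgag

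A CAGA box stood in 3 of the 10 windows, at bases -201 to -196 from the first Tgif1 start, at -60 to -55 from the second Tgif1 start and at -203 to -198 from the second start of Tgfbr1. It was present in 17.1% of all 32851 mouse windows of the same length. The palindromic SMAD box GTCTAGAC (0.167% of all windows), the AP-1 site TGANTCA (6.75%), the cAMP response element TGACGTCA (1.55%) and the CArG core of the serum response element (1.47%) matched in none of the 10, searched on both strands. The TGIF site TGTCA was found in 4 of them, 3 belonging to Tgif1, and in 40.0% of all windows. The CAGA box and TGIF motifs overlapped each other in none of the 10 windows. Those windows belonged to Tgif1, Smad3, Tgfbr1, Tgfbr2 and Ski. No window was searched for the called gene Smad7 or for Smad2, Smad4 and Skil. Smad7, Smad2 and Smad4 lie on chromosome 18, and none of the 10 windows came from that chromosome. The counts, that of the palindromic SMAD box included, therefore say nothing about motifs at Smad7, Smad2, Smad4 and Skil. The TPM values are given per gene, so they do not show which start was used, and a match describes letters only.

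The type I receptor gene Tgfbr1, which encodes the kinase that phosphorylates SMAD2 and SMAD3, was higher in Rig1 KO, with no overlap between the groups. It stood at 16.5, 16.2, 20.1 and 19.9 TPM in Rig1 KO libraries 1 to 4 and at 11.8, 10.9, 11.2, 11.7 and 12.3 TPM in WT libraries 1 to 5. Libraries 3 and 4 of Rig1 KO were above libraries 1 and 2, and the lowest of the 4 still exceeded the highest WT library. The log2 fold change was 0.60 (SE 0.080, limma adjusted p = 0.000171), and p was 0.00794 in a two-sided exact permutation test on TPM, the smallest value that 4 and 5 libraries can give. Adjusted for B cell marker level (their mean, entered as a covariate) it was 0.73 (limma adjusted p = 0.00399).

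Tgfbr2, the ligand-binding type II receptor, was at 44.2, 40.8, 51.4 and 46.1 TPM in Rig1 KO libraries and at 46.2, 44.3, 47.2, 46.2 and 50.3 TPM in WT libraries. The groups overlapped, and the highest and the lowest library were both Rig1 KO. The log2 fold change was -0.040 with a 95% interval of -0.19 to 0.11 (limma adjusted p = 0.662). Under median ratio scaling, which sets the median gene to no change, it became -0.17 (-0.28 to -0.071, limma adjusted p = 0.0122). Over the whole table the median log2 fold change was 0.13 with TPM as deposited and 0.00 under that scaling.

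**Figure D1:**
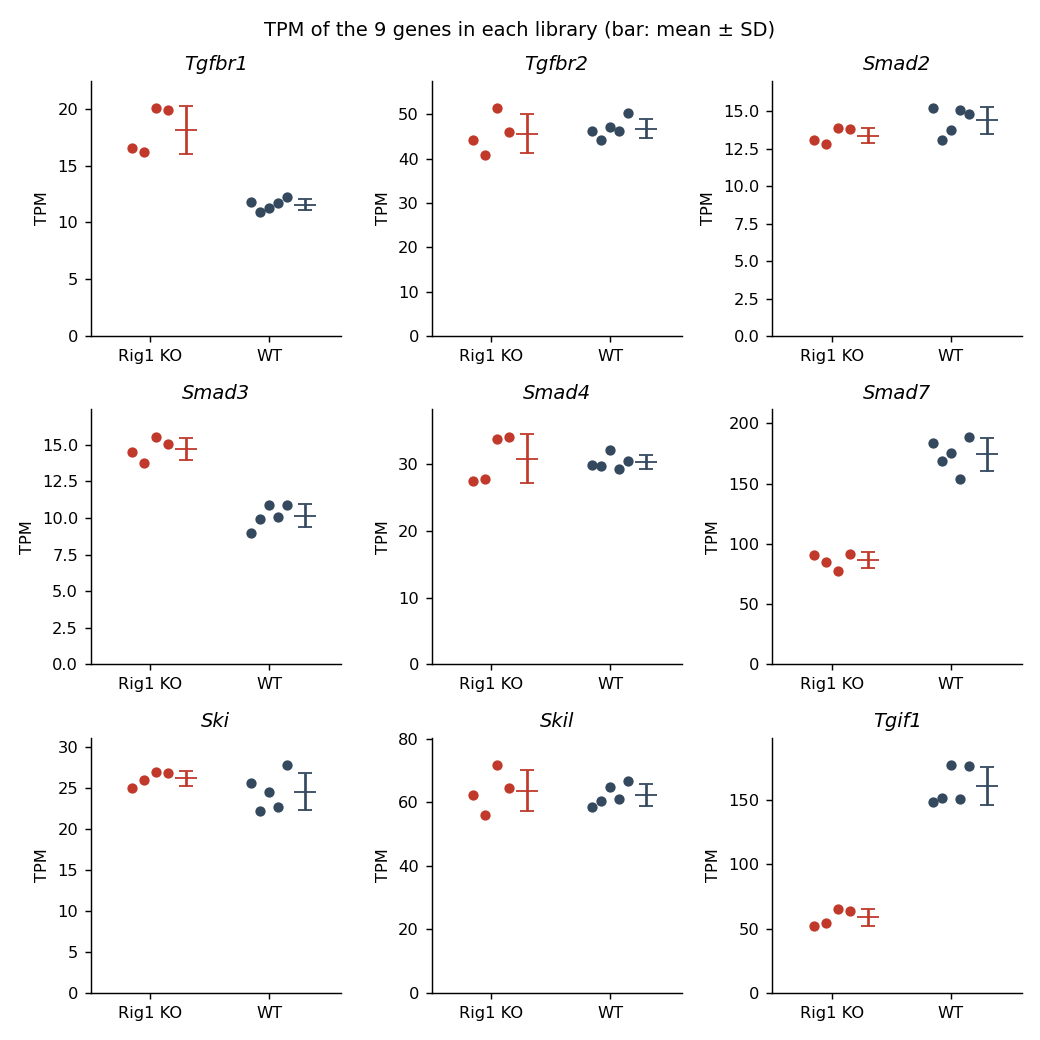
TPM of each of the 9 genes (vertical axes, from 0) in the 4 Rig1 KO libraries (left, red) and the 5 WT libraries (right, dark), with points in library order and mean ± SD beside them. Tgfbr1 and Smad3 show 4 Rig1 KO points above all WT points, Smad7 and Tgif1 show 4 below, and the other 5 genes overlap.

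Among the SMAD genes, Smad3 rose, Smad7 fell, and Smad2 and the shared partner Smad4 did not pass. Smad3, a receptor-activated SMAD that binds DNA directly, was at 14.5, 13.8, 15.5 and 15.1 TPM in Rig1 KO libraries and at 8.99, 9.94, 10.9, 10.1 and 10.9 TPM in WT libraries. The groups did not overlap, and the 4 Rig1 KO values were close together. The log2 fold change was 0.50 (SE 0.072, limma adjusted p = 0.000312) and the exact permutation test gave p = 0.00794 (two-sided). Adjusted for B cell marker level it was 0.55 (limma adjusted p = 0.0117).

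Smad2, the other receptor-activated SMAD of this pathway, was at 13.1, 12.8, 13.8 and 13.8 TPM in Rig1 KO libraries and at 15.2, 13.1, 13.7, 15.1 and 14.8 TPM in WT libraries. Its log2 fold change was -0.097 (interval -0.24 to 0.048, limma adjusted p = 0.25), and the groups overlapped through WT libraries 2 and 3. After median ratio scaling they no longer overlapped, and the log2 fold change was -0.22 (limma adjusted p = 0.00481). The ratio of Smad3 to Smad2, which a single scaling factor per library leaves as it is, was 2.79 ± 0.0495 in Rig1 KO and 1.80 ± 0.203 in WT libraries (SD, n = 4 and 5, on exon-length TPM).

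Smad4, the partner that every receptor-activated SMAD shares, was at 27.4, 27.8, 33.8 and 34.1 TPM in Rig1 KO libraries and at 29.9, 29.7, 32.1, 29.3 and 30.4 TPM in WT libraries. Rig1 KO libraries 1 and 2 were the lowest of all 9 and libraries 3 and 4 the highest, so the spread within Rig1 KO exceeded the difference between genotypes. The log2 fold change was 0.016 (interval -0.15 to 0.19, limma adjusted p = 0.880). Without Rig1 KO libraries 1 and 2, a fit added after seeing the data, Smad4 was called higher at 0.16 (limma adjusted p = 0.0482), and without libraries 3 and 4 it was -0.13 (limma adjusted p = 0.111). A processed pseudogene overlaps Smad4 on the opposite strand in the GENCODE M21 annotation, and no other gene's span overlaps any of the 9.

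Smad7, the inhibitory SMAD that recruits ubiquitin ligases to the receptor, was at 91.2, 85.3, 77.4 and 91.5 TPM in Rig1 KO libraries. In WT libraries it was at 184, 169, 175, 154 and 189 TPM. The highest Rig1 KO library lay far under the lowest WT library. The log2 fold change was -1.0 (SE 0.073, interval -1.16 to -0.84, limma adjusted p = 2.53e-06), and the exact permutation test gave p = 0.00794 (two-sided). The fall placed Smad7 at position 299 from the lowest of 10540 tested genes, and Ddx58, the targeted gene, at 326. Adjusted for B cell marker level the log2 fold change was -1.05 (limma adjusted p = 0.000450).

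The repressor genes split. Tgif1 encodes a homeodomain protein that recruits histone deacetylases to SMAD complexes, and it was at 52.0, 54.4, 65.0 and 63.4 TPM in Rig1 KO libraries. In WT libraries it was at 149, 151, 177, 151 and 177 TPM. Every Rig1 KO library was far below the lowest WT library. Its log2 fold change of -1.44 (SE 0.086, interval -1.63 to -1.25, limma adjusted p = 6.19e-07) was the largest of the 9 in size and stood at position 166 from the lowest of all tested genes. The exact permutation test gave p = 0.00794 (two-sided). Adjusted for B cell marker level it was -1.36 (limma adjusted p = 0.000255).

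Ski, the founding member of the SKI corepressors, was at 24.9, 25.9, 26.9 and 26.8 TPM in Rig1 KO libraries and at 25.5, 22.2, 24.5, 22.7 and 27.7 TPM in WT libraries. The Rig1 KO values fell inside the WT range, and the log2 fold change was 0.092 (interval -0.065 to 0.25, limma adjusted p = 0.314), turning to -0.041 under median ratio scaling. Skil, which encodes SnoN and is itself a target of the pathway, was at 62.3, 56.0, 71.6 and 64.3 TPM in Rig1 KO libraries and at 58.5, 60.2, 64.8, 61.0 and 66.6 TPM in WT libraries. The groups overlapped, with Rig1 KO library 2 the lowest and library 3 the highest of all 9. The log2 fold change of Skil was 0.026 (interval -0.13 to 0.19, limma adjusted p = 0.791), turning to -0.11 under median ratio scaling. With TPM as deposited, both intervals end below the log2 fold change of Smad3, the smallest of the 4 called genes.

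**Figure D2:**
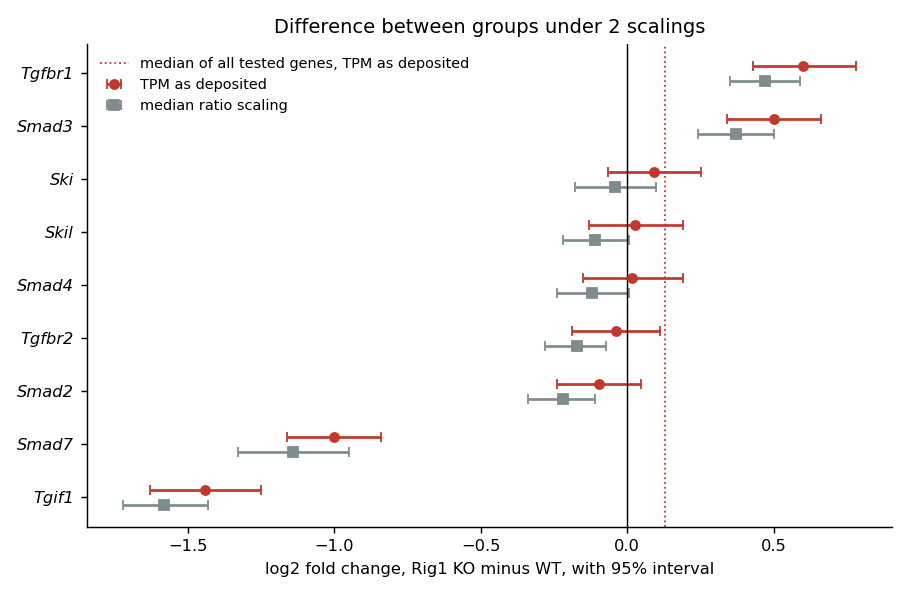
Log2 fold change, Rig1 KO minus WT, of the 9 genes (horizontal axis) with 95% intervals from limma, for TPM as deposited (red circles) and after median ratio scaling (grey squares), with the median of all tested genes dotted at 0.13. Tgfbr1, Smad3, Smad7 and Tgif1 keep their side of 0 under both scalings, and the intervals of Tgfbr2 and Smad2 exclude 0 only after median ratio scaling.

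Groups did not overlap for 4 of the 9 genes with TPM as deposited, against 38.1% of all tested genes. After median ratio scaling they did not overlap for 6 of the 9, Tgfbr2 and Smad2 being added, against 38.0% of tested genes. Under that scaling 2 of the 9 were called higher and 4 lower, where 45.2% of tested genes were called, 22.6% in each direction. The median log2 fold change over the 9 genes was 0.016 as deposited and -0.12 after median ratio scaling.

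The deposited TPM divide reads by the whole span of a gene, introns included. That span is 1.66 times the exon length for Tgif1 and 20.1 times for Smad3, so levels of different genes were compared after the reads were rescaled to exon length. This length is the union of all annotated exons, which can exceed that of the transcripts in use. Reads counted in introns could not be told apart, so the order of the genes holds on this scale only. On that scale Smad7 averaged 195 ± 16.8 TPM in Rig1 KO and 404 ± 30.7 TPM in WT libraries. In WT it was the most abundant of the 9, with no overlap with the next gene, Smad4, at 195 ± 7.06 TPM. In Rig1 KO libraries Smad7 overlapped Smad4 (193 ± 18.9 TPM), which in turn overlapped Tgfbr2 (182 ± 13.6 TPM). The inhibitor's transcript was thus level with those of the shared SMAD and the type II receptor in Rig1 KO, and above both in WT.

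The lower end of the order differed as well. Tgif1 averaged 35.0 ± 3.10 exon-length TPM in Rig1 KO, where it was last and overlapped Smad2 (38.0 ± 0.628), and 98.5 ± 8.43 in WT, where it overlapped Ski (111 ± 9.26) and exceeded Smad3 (75.2 ± 5.53). Tgfbr1 was the last in WT, at 40.3 ± 1.39, overlapping Smad2 (41.9 ± 2.33), and at 61.6 ± 5.74 in Rig1 KO it overlapped Skil (64.8 ± 5.20). Ski (116 ± 2.66) and Smad3 (106 ± 3.07) were each separate from their neighbours in Rig1 KO. Skil, at 65.1 ± 3.13 exon-length TPM in WT, overlapped Smad3 there. Tgfbr2 averaged 192 ± 7.11 in WT and overlapped Smad4.

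**Figure D3:**
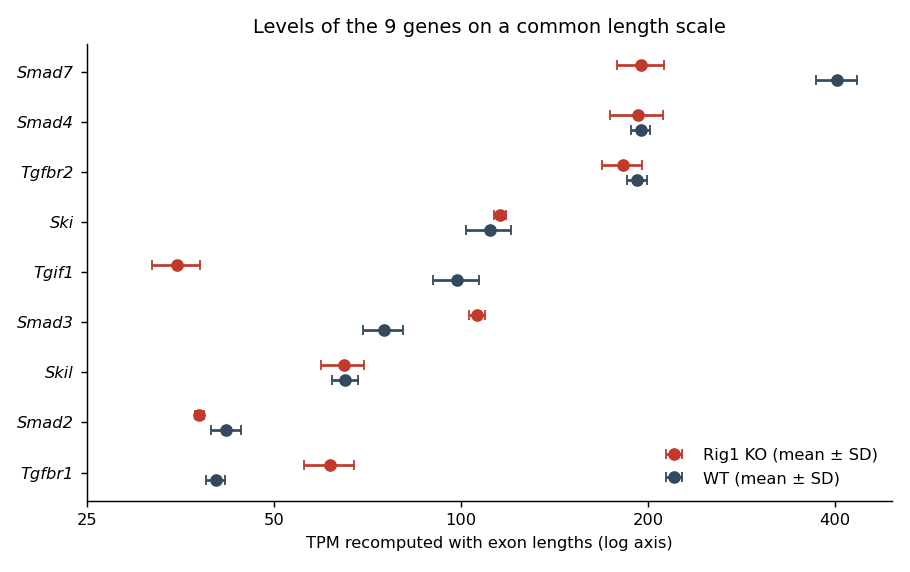
Mean ± SD of TPM recomputed with exon lengths (horizontal log axis) for the 9 genes in Rig1 KO (red, upper of each pair, n = 4) and WT (dark, lower, n = 5), ordered by the WT mean. Smad7 stands alone at 404 TPM in WT and joins Smad4 and Tgfbr2 near 195 TPM in Rig1 KO, and Tgif1 moves to the low end.

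Ratios of 2 genes in 1 library are not altered by a single scaling factor per library, such as that of median ratio scaling, though quantile scaling can alter them. Smad7 over Tgfbr1, the inhibitor against the receptor kinase it blocks, was 3.67, 3.50, 2.57 and 3.06 in Rig1 KO libraries and 10.4, 10.3, 10.4, 8.77 and 10.2 in WT libraries. Smad7 over Smad3 was 1.97, 1.94, 1.56 and 1.90 in Rig1 KO libraries and 6.41, 5.32, 5.03, 4.79 and 5.44 in WT libraries. In both ratios the genotypes were separated by a wide gap, and Rig1 KO library 3 was the lowest of all. Tgif1 over Smad3 ran from 0.297 to 0.348 in Rig1 KO and from 1.24 to 1.37 in WT libraries. Tgfbr1 over Tgfbr2, the type I receptor transcript against the type II, ran from 0.317 to 0.366 in Rig1 KO and from 0.202 to 0.217 in WT. Skil over Ski overlapped, at 0.498 to 0.615 in Rig1 KO and 0.528 to 0.625 in WT. These ratios combine genes already described and were given no test.

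**Figure D4:**
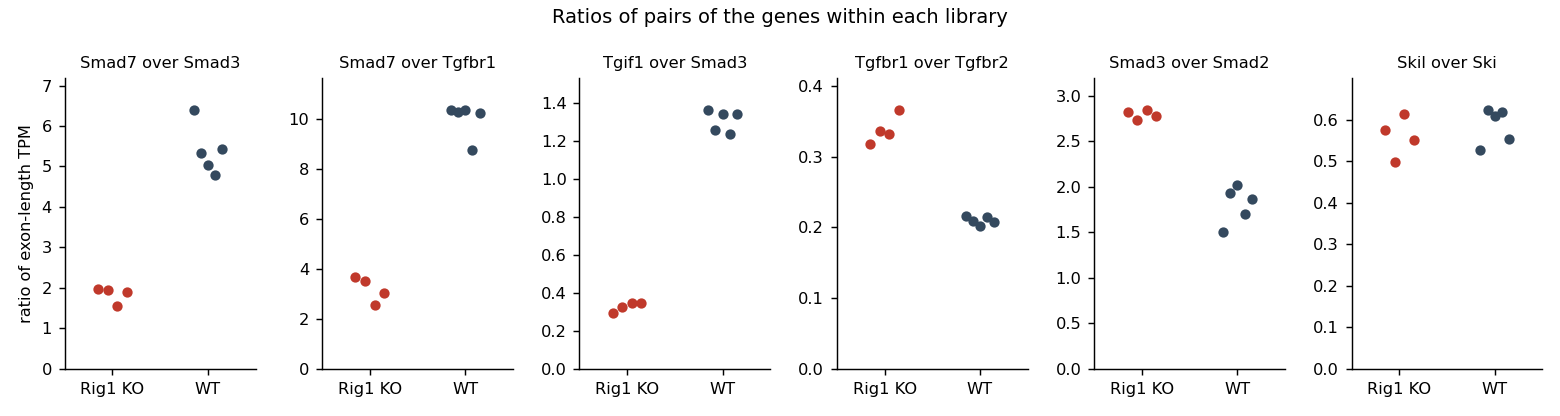
Ratios of exon-length TPM between pairs of the genes within each library (vertical axes, from 0), Rig1 KO libraries left in red and WT libraries right. The 4 Rig1 KO points lie below every WT point for Smad7 over Smad3, Smad7 over Tgfbr1 and Tgif1 over Smad3, above them for Tgfbr1 over Tgfbr2 and Smad3 over Smad2, and among them for Skil over Ski.

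The rest of the pathway was read from 8 lists by role, 103 symbols in all, of which 100 were found and 82 were tested. Of these, 24 rose and 20 fell, and 38 did not pass, against 33.5% of all tested genes higher and 12.2% lower. After median ratio scaling 17 rose and 30 fell, against 22.6% of all tested genes in each direction. The counts of each list below are to be read beside these shares.

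Tgfb1, the main ligand made by lymphocytes and platelets, chosen for mention after its values were seen, averaged 116 ± 2.67 TPM in Rig1 KO and 121 ± 17.6 TPM in WT libraries (limma adjusted p = 0.667, interval of the log2 fold change -0.25 to 0.15). Of 7 tested ligand and activation genes 1 rose and 1 fell. Nrros, which tethers latent TGF-beta on myeloid cells, rose to 71.7 ± 5.18 TPM in Rig1 KO, against 49.95 ± 5.72 TPM in WT (limma adjusted p = 0.000629). Thbs1, a matrix protein of platelet granules that can activate latent TGF-beta, was 6.91-fold lower, at 1.41 ± 0.394 TPM in Rig1 KO and 9.75 ± 2.54 TPM in WT (limma adjusted p = 5.40e-06). It moved beside the platelet markers, whose part in this was not tested. Tgfb2, Tgfb3, Ltbp1, Ltbp4 and Itgb8 did not reach the filter on deposited TPM and were not tested.

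Other receptors of the family were mostly low in deposited TPM, a unit that long introns reduce. Of 10 such genes 6 were tested, with 1 higher and 2 lower. Acvr2a, an activin type II receptor, fell to 1.53 ± 0.193 TPM in Rig1 KO, against 3.78 ± 0.279 TPM in WT (limma adjusted p = 2.09e-05). Eng, the coreceptor endoglin, fell to 7.82 ± 0.625 TPM in Rig1 KO, against 10.2 ± 1.03 TPM in WT. Bmpr2, a type II receptor for bone morphogenetic proteins, was higher at 1.54 ± 0.249 TPM in Rig1 KO and 0.974 ± 0.289 TPM in WT. Adjusted for B cell marker level, the log2 fold change of Eng was -0.37 (SE 0.16), against -0.34 (SE 0.088) without that covariate. That of Bmpr2 was 0.52 (SE 0.22), against 0.37 (SE 0.13). Both lost the call with the covariate, with a limma adjusted p of 0.103 for Eng and 0.106 for Bmpr2. Bmpr2 also lost it without any one of Rig1 KO 2, 3 or 4 or WT 1 or 2 (limma adjusted p from 0.0587 to 0.114). Under median ratio scaling Bmpr2 lost it too (limma adjusted p = 0.0659). Of the other SMAD genes, Smad5, which carries bone morphogenetic protein signals, rose 1.63-fold to 23.7 ± 2.39 TPM in Rig1 KO, against 14.5 ± 1.03 TPM in WT (limma adjusted p = 9.11e-05). Smad1 did not pass, and Smad6 and Smad9 did not reach the filter on deposited TPM.

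The inhibitors and turnover factors other than Smad7 and Tgif1 held 7 lower and 2 higher genes among 16 tested, with a median log2 fold change of -0.19. After median ratio scaling 11 were lower and 2 higher, and adjusted for B cell marker level 4 were lower and 1 higher. Ppp1r15a, whose product guides a phosphatase to the type I receptor together with SMAD7 and is also a stress gene, fell 7.37-fold to 201 ± 16.1 TPM in Rig1 KO, against 1485 ± 58.5 TPM in WT. Bambi, a decoy receptor without a kinase, was 7.02-fold lower at 1.39 ± 0.297 TPM in Rig1 KO and 9.76 ± 1.26 TPM in WT. Tgif2, the close relative of Tgif1, was 3.75-fold lower at 0.935 ± 0.166 TPM in Rig1 KO and 3.50 ± 0.506 TPM in WT (limma adjusted p = 1.26e-05). The genotypes did not overlap for any of these 3 genes. The lowest Rig1 KO library was at 0.957 TPM for Bambi and 0.722 TPM for Tgif2. Both genes therefore met the filter of 1 TPM in 4 or more libraries only through WT libraries. With no filter on low TPM both were still called lower, at log2 fold changes of -2.17 for Bambi and -1.22 for Tgif2.

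Smaller falls in that list included Smurf2, a ubiquitin ligase that SMAD7 brings to the receptor, at 11.9 ± 1.13 TPM in Rig1 KO and 15.3 ± 0.620 TPM in WT. Pmepa1, a membrane protein that sequesters SMAD2 and SMAD3, was at 4.44 ± 0.106 TPM in Rig1 KO and 6.29 ± 0.773 TPM in WT. Usp9x, a deubiquitinase of SMAD4, rose to 29.5 ± 4.20 TPM in Rig1 KO, against 21.9 ± 1.24 TPM in WT. The adjusted p-values of these 3 genes in limma were 0.00314, 0.00329 and 0.00402, in that order. Smurf2 lost its call when adjusted for B cell marker level (limma adjusted p = 0.0752). Its log2 fold change was -0.34 (SE 0.13) with that covariate and -0.34 (SE 0.072) without it.

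Most genes of the corepressor complexes that SKI, SKIL and TGIF1 bring to DNA did not pass. Of 11 tested genes 1 rose, none fell and 10 did not pass (limma, with 0 lower at an unadjusted p under 0.05 and 3 called lower by limma voom), and after median ratio scaling none rose and 2 fell. The median log2 fold change was 0.022.

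Anchors and nuclear partners of the SMAD proteins gave 3 higher and 1 lower among 8 tested. Over all tested genes 33.5% were higher and 12.2% lower, so these counts are near the shares of the whole table. Zfyve16, an endosomal protein that binds SMAD proteins, rose to 10.5 ± 1.40 TPM in Rig1 KO, against 6.79 ± 0.790 TPM in WT (limma adjusted p = 0.00147). Zeb2, a SMAD-binding transcription factor of terminal effector cells, rose to 6.17 ± 0.732 TPM in Rig1 KO, against 3.37 ± 1.34 TPM in WT, but without Rig1 KO libraries 3 and 4 its limma adjusted p was 0.118. Runx3, a factor of the CD8 lineage that works with SMAD3, rose to 53.0 ± 4.66 TPM in Rig1 KO, against 42.5 ± 3.80 TPM in WT, and lost its call under median ratio scaling (limma adjusted p = 0.0603). Crebbp, an acetyltransferase coactivator, fell to 19.5 ± 1.80 TPM in Rig1 KO, against 23.5 ± 1.47 TPM in WT. It lost its call when adjusted for B cell marker level (limma adjusted p = 0.205). Its log2 fold change was -0.23 (SE 0.13) with that covariate and -0.26 (SE 0.074) without it.

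Transcripts known to be raised by TGF-beta did not move in 1 direction. Of 14 tested, 4 rose and 6 fell, with a median log2 fold change of -0.33. After median ratio scaling 1 rose and 7 fell, and adjusted for B cell marker level 2 rose and 6 fell. Those that fell were led by Junb, an AP-1 subunit, at 624 ± 47.6 TPM in Rig1 KO and 5050.4 ± 441 TPM in WT, Gadd45b, a stress and survival gene (60.5 ± 4.597 TPM in Rig1 KO and 242 ± 17.4 TPM in WT), and Klf11, a repressor induced by TGF-beta (14.3 ± 1.30 TPM in Rig1 KO and 50.8 ± 4.45 TPM in WT). Rgs16 (1.69 ± 0.305 TPM in Rig1 KO and 8.21 ± 1.32 TPM in WT) and Rgs1 (43.2 ± 5.07 TPM in Rig1 KO and 165 ± 35.2 TPM in WT), regulators of G protein signalling, fell too. Cd101, a surface inhibitor of T cell activation, rose 2.01-fold to 9.74 ± 1.48 TPM in Rig1 KO, against 4.85 ± 0.317 TPM in WT. Junb and Rgs1 are also known to be induced by antigen receptor stimulation.

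Transcripts known to be lowered by TGF-beta were mostly higher in Rig1 KO libraries, with 11 higher and 3 lower of 18 tested and a median log2 fold change of 0.92 (0.78 after median ratio scaling, with 10 higher and 3 lower). Prf1, which encodes perforin, averaged 250.3 ± 23.7 TPM in Rig1 KO and 86.1 ± 13.2 TPM in WT. Tbx21, the transcription factor T-bet, averaged 57.2 ± 4.39 TPM in Rig1 KO and 22.7 ± 3.50 TPM in WT, and Eomes, its relative, 299 ± 18.2 TPM in Rig1 KO and 138 ± 14.7 TPM in WT. Ccnd2, a cyclin of the G1 phase, averaged 257 ± 17.5 TPM in Rig1 KO and 155 ± 8.93 TPM in WT. Ifng, which encodes interferon-gamma, fell, at 21.4 ± 5.13 TPM in Rig1 KO and 70.2 ± 11.4 TPM in WT, and so did Klf2, a quiescence factor, at 989.6 ± 50.2 TPM in Rig1 KO and 1937 ± 154 TPM in WT. All 6 were called by limma (adjusted p from 2.09e-06 to 1.47e-05). Natural killer cells carry several of these transcripts, and their markers were higher in Rig1 KO libraries as given above. Their part in these values was not tested.

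**Figure D5:**
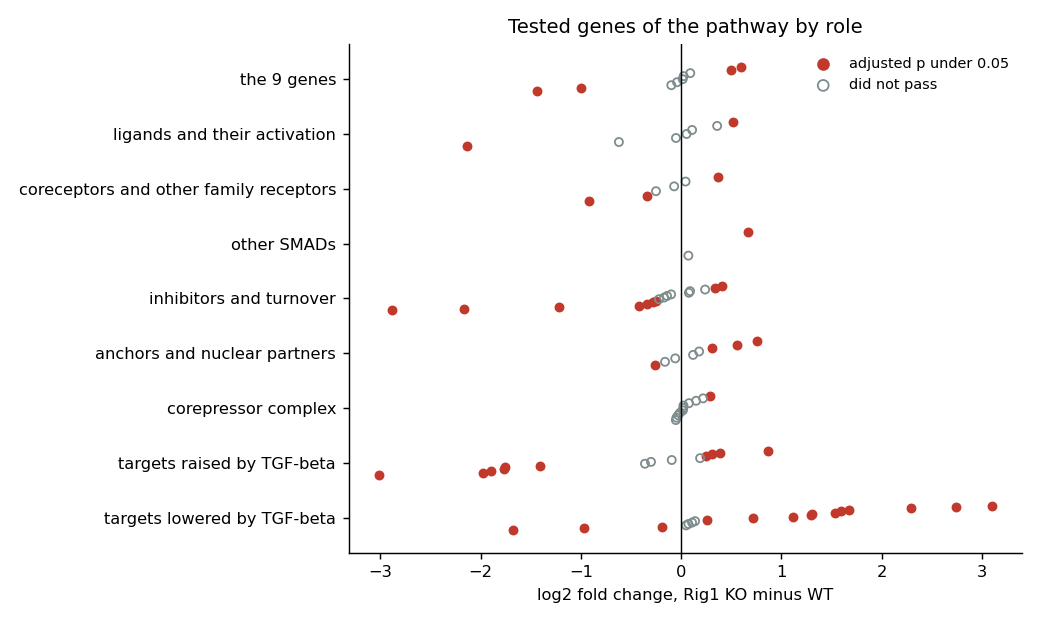
Log2 fold change, Rig1 KO minus WT, of each tested gene (horizontal axis) by role in the pathway, filled red where the limma adjusted p was under 0.05 and open where it was not. The corepressor genes lie close to 0, the inhibitors reach -2.88 at Ppp1r15a, and the genes lowered by TGF-beta lie mostly to the right.

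The genes whose pattern over the 9 libraries was most like that of Tgif1, by Pearson correlation of log2(TPM + 1), were Prdx6 (r = 0.998), Nfkbiz (r = 0.995) and Srgn (r = 0.994). Prdx6, an antioxidant enzyme, averaged 82.2 ± 4.74 TPM in Rig1 KO and 166 ± 13.8 TPM in WT libraries. Nfkbiz, an atypical inhibitor of NF-κB, averaged 36.9 ± 2.57 TPM in Rig1 KO and 119 ± 9.34 TPM in WT, and Srgn, the proteoglycan of cytotoxic granules, 71.1 ± 3.38 TPM in Rig1 KO and 136 ± 9.83 TPM in WT. The correlations describe these libraries, which share the split by genotype, and carry no test.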

How the data were processed

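Poly(A) RNA of splenic CD8+ T cells was measured in 4 Rig1 KO and 5 WT libraries, grouped by the sample titles. The deposited values are TPM, 1 column per library, per the file headers. The tools named are fastp and featureCounts and the build is mm39 (GRCm39), per the submitters' processing notes. Tool versions, the aligner, the annotation and the use of strand are not given in the sources used here.

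Whole reads behind the TPM were recovered from the ratios of a gene's values across libraries, taking the lowest whole-number solution (relative tolerance 4e-12), which succeeded for all 17934 genes above 0 in at least 1 library (the rest of the 18188 listed are 0 throughout) and is too low where a gene's reads share a divisor. The lengths implied were within 1% of the genomic span for 98.9% of 14006 genes (GENCODE M21, GRCm38, used for lengths and names only), and reads counted in introns could not be told apart. Exon-length TPM divide the recovered reads by the union of annotated exons.

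The test was limma 3.58.1 (R 4.3.3), two-sided, without covariates and with its trend option, on log2(TPM + 1) of the 10540 genes reaching 1 TPM in 4 or more libraries. P-values were adjusted by Benjamini-Hochberg over these genes at 0.05. The filter could be met by the libraries of 1 genotype alone. The method was tested on simulated data with normal noise and far fewer changed genes than were called here. That simulation did not model cell mixtures or a shift of the whole table. Fold changes on this scale understate those of low genes. Exact permutation tests used every split of the libraries. No 2 libraries of a group were alike within sampling noise (chi-square over degrees of freedom of 4.602 or more). Genes named were the 9, Ddx58, up to 6 per pathway list with the smallest p, and the 3 most like the called gene with the largest change. One gene of the corepressor list that this rule names is not reported here. The genes, lists and rules were chosen with earlier results of these data known. Alternatives were other pseudocounts (0.1, 0.5), filters, scalings, lengths, covariates, array weights and left-out libraries.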

Additional observations from a re-analysis of the deposited data

How the results depend on the processing

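The calls of Tgfbr1, Smad3, Smad7 and Tgif1 kept their direction and stayed under 0.05 in limma under all 24 alternatives run. Their log2 fold changes ranged from 0.45 to 0.74, 0.34 to 0.55, -1.15 to -0.95 and -1.60 to -1.31, in that order. Leaving out 1 library at a time left 2 of the 9 genes higher and 2 lower each time, with 2835 to 3610 genes higher and 1101 to 1285 lower in the whole table. Without Rig1 KO 1 and 2 Smad4 joined the genes called higher, at 0.16. The alternatives that scale to the median gene or the whole distribution called 4 of the 9 lower, namely median ratio scaling, quantile scaling and limma voom on recovered reads (the last added after seeing the data). Under these 3, Tgfbr2 was at -0.17, -0.16 and -0.18 and Smad2 at -0.22, -0.25 and -0.24. They called 2384, 2195 and 2494 of all tested genes lower, against 1291, and voom called 31 genes of the pathway lists lower, against 20. Adjusted for B cell marker level 2236 genes were higher and 601 lower, and without Rig1 KO 3 and 4 (added after seeing the data) 2165 were higher, against 3526.

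Genes that did not pass changed sign in places. Ski was -0.041, -0.037 and -0.042 under median ratio scaling, quantile scaling and voom, Skil -0.11, -0.088 and -0.11, and Smad4 -0.12, -0.11 and -0.12. With exon lengths Skil was -0.010 and Smad4 -0.020, and with array weights -0.0030 and -0.058. Without Rig1 KO 3 and 4 they were -0.073 and -0.13. Leaving out 1 library at a time gave -0.034 to 0.067 for Smad4 (below 0 without Rig1 KO 3, at -0.030, or 4), -0.032 to 0.085 for Skil (below 0 without Rig1 KO 3), -0.097 to 0.011 for Tgfbr2 (above 0 without Rig1 KO 2) and -0.097 to 0.026 for Tgfb1 (above 0 without WT 5). Tgfbr2 was 0.097 with the B cell covariate and 0.056 without Rig1 KO 1 and 2. Tgfb1 was 0.19 with that covariate, 0.079 without WT 4 and 5, and 0.026 with libraries 1 to 4 of each group and with the replicate block. The cause was not tested.

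Among 34 named genes outside the 9, 22 of 812 gene and setting pairs lost the call, 10 of them for Bmpr2. Same-numbered libraries did not deviate together (correlations 0.10, -0.06, -0.10 and -0.07). The check gave no sign that the numbers pair samples, but it cannot exclude pairing. With the replicate block on libraries 1 to 4 of each group, 3600 genes were higher and 1182 lower, and 2 of the 9 were higher and 2 lower.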
